A study of Mus musculus with 8 samples.

Results

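Cadherins and protocadherins were taken as every gene on the array with at least 1 probe set annotated to it alone and with a symbol of Cdh plus a number, or a symbol that begins with Pcdh. This gave 56 genes of the 18193 measured, 21 of them Cdh genes and 35 Pcdh genes, and 22 of the Pcdh genes belong to the Pcdhb cluster. Together they had 101 probe sets. Where a gene had several, as 27 did, the one brightest across the arrays was used. For Cdh23, Pcdh10, Pcdhb14 and Pcdhb15 the probe set used carries a suffix for sequence shared with other transcripts.

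Cadherins are cell surface proteins that bind the same or a similar cadherin on the next cell when calcium is present. The classical cadherins (type I and type II) hold the actin cytoskeleton through catenins, and the set of cadherins on a cell influences which neighbours it sorts with. Protocadherins share the repeats outside the cell but not the catenin-binding tail. The clustered ones (Pcdha, Pcdhb and Pcdhg) give single neurons a surface identity, and the delta protocadherins are expressed in patterns across the developing nervous system.

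Messenger RNA of 3 wild-type mouse cell types was measured on Affymetrix whole-genome arrays. Embryonic fibroblasts (MEF, 2 arrays) were grown in DMEM with serum. Neural precursor cells (NPC, 3 arrays) were made from ES cells through embryoid bodies and selection in ITSFn medium, and were kept in FGF2 and EGF, which the labels write as EGF2. Embryonic stem (ES) cells (3 arrays) came from the line V6.5 and were grown with leukemia-inhibiting factor on irradiated fibroblasts and then passaged without feeders on gelatin. The labels leave unsaid whether replicate arrays were made from separate cultures, and the p-values therefore reflect array-to-array spread that may be technical only.

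All levels below are log2(intensity + 16) after quantile normalization, a scale whose floor is 4, so folds of dim genes are understated and levels of different genes are not set against each other. A gene is called where the limma p adjusted over all 18193 genes is under 0.05 and the groups differ by 1 log2 unit or more. Differences are given ± SE of the fit of 8 arrays. In bulk RNA, fewer cells of a type and less RNA per cell cannot be told apart. The groups matched their labels by marker genes: the summed level of Col1a1, Col1a2 and Thy1 was 37.47 to 37.50 in MEF, 13.82 to 14.70 in NPC and 18.98 to 19.05 in ES cells. That of Pou5f1, Nanog and Zfp42 was 13.07 to 13.89 in MEF, 12.76 to 13.46 in NPC and 34.96 to 35.29 in ES cells. Nes, Sox2, Fabp7 and Olig2 summed to 24.66 to 24.86 in MEF, 44.10 to 46.22 in NPC and 29.21 to 30.09 in ES cells. Of these 4, 3 were called higher in NPC than in ES cells. Sox2 was not, at 11.61, 10.87 and 10.72 in NPC and 12.14, 12.09 and 11.91 in ES cells. Between arrays of a group, log2 values correlated at 0.967 or more, and the lowest values were those of NPC 1 with NPC 2 and NPC 3 (0.967 and 0.969, against 0.987 between NPC 2 and NPC 3).

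The first comparison asks which of these adhesion genes differ once ES cells have become neural precursors. Of the 56 genes, 25 were higher in NPC than in ES cells (44.6%, against 10.0% of all genes) and 2 were lower, Cdh1 and Cdh3 (3.57%, against 12.9% of all genes). The median log2 difference of the 56 genes was 0.69, against -0.05 over all genes. Of the 25, 8 were Cdh genes and 17 were Pcdh genes, and the greatest difference was that of Cdh4, at 4.98. With a pseudocount of 64 in place of 16, 16 genes were higher and 1 was lower.

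MEF were compared with ES cells for the same question in a mesenchymal cell type. Here 12 of the 56 genes were higher (21.4%, against 12.2% of all genes) and 1 was lower, Cdh1 (1.79%, against 12.8% of all genes), with a median difference of 0.33 against -0.04 over all genes. Cdh11, at 6.64, had the greatest difference. The count of higher genes depended on the pseudocount, with 19 at a pseudocount of 1 and 6 at 64.

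In MEF against NPC, 5 genes were higher (8.93%, against 10.5% of all genes) and 18 were lower (32.1%, against 7.95% of all genes), with a median of -0.36 against -0.01 over all genes. The higher genes were Cdh3, Cdh11, Pcdh7, Pcdh18 and Pcdh19. On the deposited scaling, the median of all genes is shifted by 0.43 towards MEF. There 7 members were higher and 9 were lower, so the share of calls that were higher was 43.8%, against 21.7% after quantile normalization. Over all 18193 genes, 4459 were higher and 636 lower on that scaling, against 1912 and 1447 after quantile normalization. Lower calls were thus still a larger part of the calls in the members than over all genes. With a pseudocount of 64, 8 members were lower.

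The 3 comparisons share arrays and are not independent of each other. By them 29 members were called at least once and 27 never, against 6719 and 11474 of all 18193 genes. Cdh11, Pcdh7, Pcdh18 and Pcdh19 were called higher in MEF than in both other cell types, 18 members in NPC, and Cdh1 alone in ES cells. Over all genes, 6.22%, 4.21% and 7.77% were called higher in MEF, in NPC and in ES cells than in both others.

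**Figure D1:**
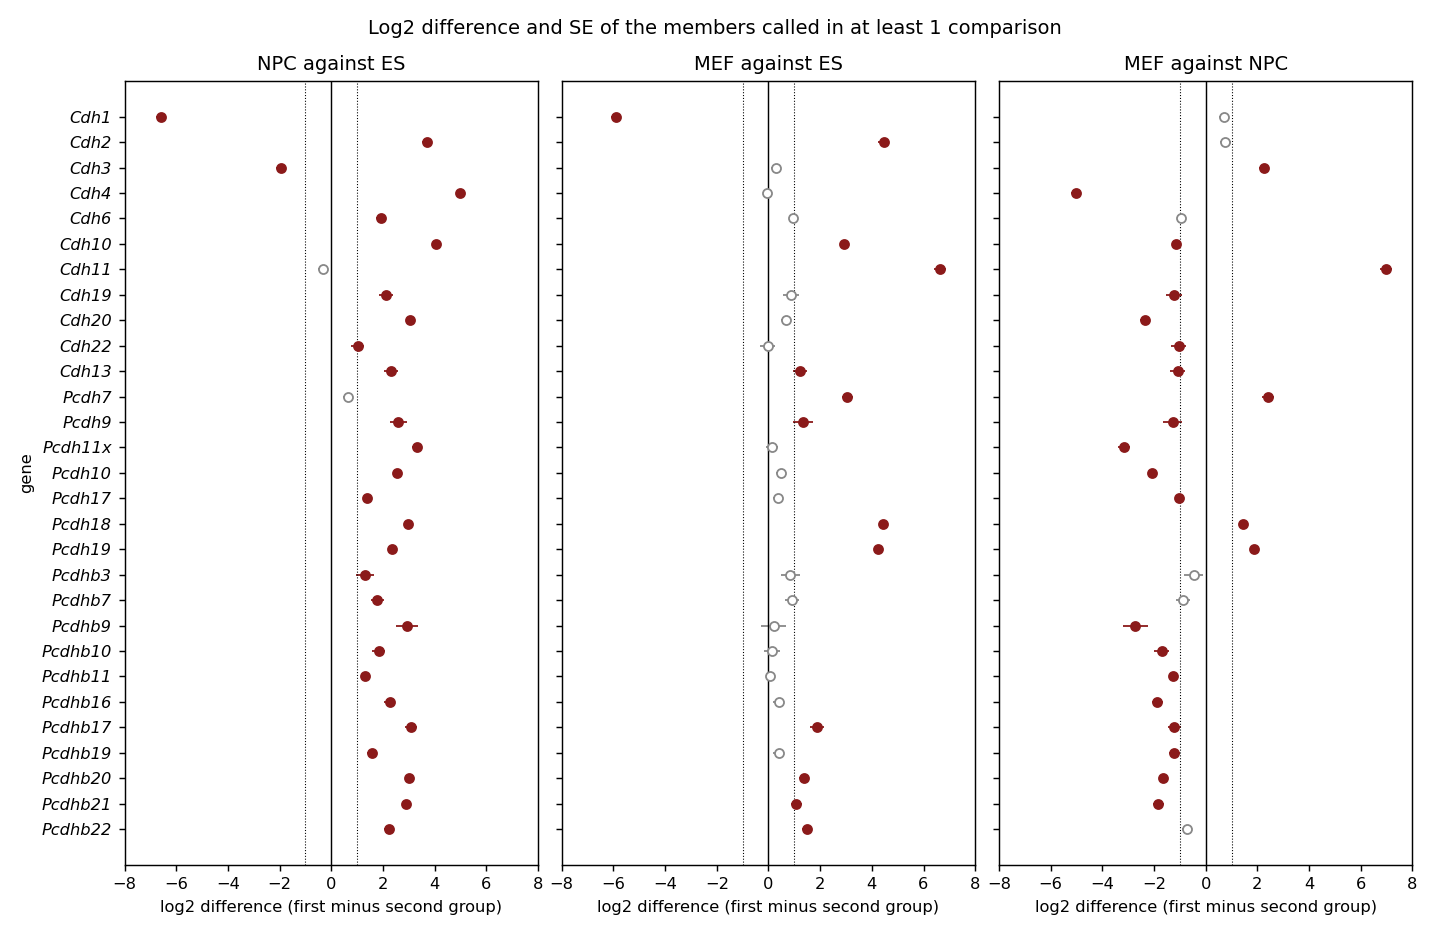
Log2 difference of the 29 called genes in NPC against ES, MEF against ES and MEF against NPC, 1 panel each, with SE of the fit as bars. Filled points are called, and dotted lines mark a difference of 1 in either direction. Most filled points lie right of 0 in NPC against ES and left of 0 in MEF against NPC, and Cdh1 and Cdh11 lie farthest out.

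Type I cadherins are the classical cadherins that hold cells firmly at adherens junctions. Cdh1, the E-cadherin of epithelia and of the early embryo, was at 5.28 and 5.03 in MEF, 4.49, 4.13 and 4.73 in NPC and 11.21, 11.01 and 10.95 in ES cells. It was high on every ES array and at 5.28 or lower on all others. It was 97.3-fold lower in NPC than in ES cells (log2 difference -6.60 ± 0.17, limma adjusted p = 1.04e-08) and 59.7-fold lower in MEF than in ES cells (-5.90 ± 0.19, adjusted p = 5.84e-08).

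Cdh2, the N-cadherin of neural and mesenchymal tissue, was lowest in ES cells. Its levels were 10.05 and 10.13 in MEF, 9.64, 9.21 and 9.18 in NPC and 5.57, 6.01 and 5.31 in ES cells, with no overlap between groups. It was 13.1-fold higher in NPC than in ES cells (3.71 ± 0.19, limma adjusted p = 4.65e-07) and 22.0-fold higher in MEF than in ES cells (4.46 ± 0.21, adjusted p = 4.09e-07). The difference of MEF from NPC, 0.75 ± 0.21, was under the limit of 1 (adjusted p = 0.0206). On the second probe set of Cdh2 it was 1.18 and was called.

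Cdh4, the R-cadherin of retina and brain, was high in NPC only. Its levels were 5.20 and 4.95 in MEF, 10.02, 10.29 and 10.01 in NPC and 5.31, 4.95 and 5.13 in ES cells. The MEF and ES arrays overlapped and the NPC arrays stood well above both. It was 31.5-fold higher in NPC than in ES cells (4.98 ± 0.15, limma adjusted p = 2.28e-08) and 32.8-fold lower in MEF than in NPC (-5.04 ± 0.17, adjusted p = 6.50e-08). Between MEF and ES cells the difference was -0.06 ± 0.17 (adjusted p = 0.82).

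Cdh3, the P-cadherin of placenta and basal epithelium, is the direct neighbour of Cdh1 in the RefSeq gene order. It was at 6.79 and 6.84 in MEF, 4.36, 4.81 and 4.55 in NPC and 6.49, 6.46 and 6.66 in ES cells. The NPC arrays were low and the other 5 arrays lay close together. Cdh3 was 3.89-fold lower in NPC than in ES cells (-1.96 ± 0.17, limma adjusted p = 1.17e-05) and 4.72-fold higher in MEF than in NPC (2.24 ± 0.19, adjusted p = 1.63e-05). Unlike Cdh1, it was not called in MEF against ES cells (0.28 ± 0.19, adjusted p = 0.267). Cdh15, the M-cadherin of muscle precursors, lay between 4.75 and 5.43 on all arrays and was called in no comparison.

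**Figure D2:**
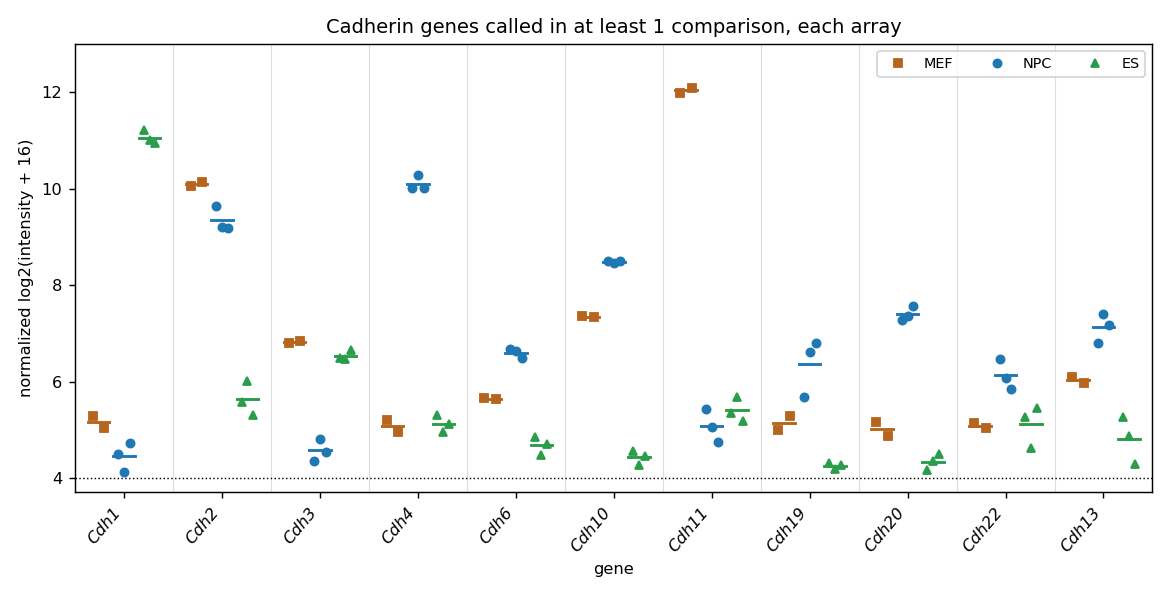
Normalized log2(intensity + 16) of the 11 called Cdh genes on each array, with MEF as squares, NPC as circles and ES as triangles, in this order from left to right within a gene. Horizontal lines are group means and the dotted line is the floor of 4. Cdh1 is high in ES cells only, Cdh11 in MEF only and Cdh4 in NPC only, and Cdh2 is high in both MEF and NPC.

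Type II cadherins bind their partners through a different interface and mark subsets of neurons, mesenchyme and vessels. Of the 11 measured, 5 were higher in NPC than in ES cells (45.5%, against 10.0% of all genes) and 0 were lower. In MEF against ES cells 2 were higher (18.2%, against 12.2%) and 0 lower. In MEF against NPC 1 was higher (9.09%, near the 10.5% of all genes) and 4 were lower (36.4%, against 7.95%). In the comparisons of NPC and of MEF with ES cells, limma gave 0 lower ones also at an unadjusted p under 0.05. Over all genes, 12.9% and 12.8% were called lower in these comparisons. The type II genes had means of 4.08 to 5.41 in ES cells, near the floor of 4. A call as lower than in ES cells thus had little or no room.

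Cdh11, the OB-cadherin of mesenchyme and osteoblasts, was at 11.99 and 12.09 in MEF, 5.43, 5.05 and 4.74 in NPC and 5.35, 5.68 and 5.19 in ES cells. It was high on both MEF arrays, while the NPC and ES arrays overlapped at a low level. It was 99.6-fold higher in MEF than in ES cells (6.64 ± 0.22, limma adjusted p = 6.48e-08) and 125-fold higher in MEF than in NPC (6.97 ± 0.22, adjusted p = 5.08e-08). A dimmer second probe set gave 4.14 in both comparisons. Cdh8 and Cdh5, its direct neighbours on either side in the RefSeq order, were called in no comparison.

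Cdh10, a type II cadherin of brain, was at 7.35 and 7.34 in MEF, 8.50, 8.45 and 8.51 in NPC and 4.57, 4.28 and 4.45 in ES cells. The groups did not overlap, with NPC highest and ES cells near the floor. It was 16.6-fold higher in NPC than in ES cells (4.06 ± 0.13, limma adjusted p = 3.13e-08), 7.56-fold higher in MEF than in ES cells (2.92 ± 0.14, adjusted p = 5.09e-07) and 2.20-fold lower in MEF than in NPC (-1.14 ± 0.14, adjusted p = 0.000234). With the mean of its 4 probe sets the differences of MEF from ES cells and from NPC were 0.81 and -0.94 and were not called. On the deposited scaling MEF differed from NPC by -0.26. Cdh9, which lies beside it in the gene order, was at 4.06 to 4.70 on all arrays.

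Cdh20, found in neural crest and parts of the brain, was at 5.17 and 4.88 in MEF, 7.27, 7.35 and 7.56 in NPC and 4.17, 4.35 and 4.5 in ES cells. NPC stood above both other groups, 8.30-fold above ES cells (3.05 ± 0.17, limma adjusted p = 8.32e-07). Cdh19, a cadherin of the Schwann cell lineage, was at 5.00 and 5.29 in MEF, 5.69, 6.62 and 6.81 in NPC and 4.31, 4.18 and 4.26 in ES cells. The groups did not overlap, and NPC 1 was the lowest NPC array. Cdh19 was 4.35-fold higher in NPC than in ES cells (2.12 ± 0.28, adjusted p = 0.000181). Its call as lower in MEF than in NPC (-1.23 ± 0.31, adjusted p = 0.0114) ended without MEF 1, at -1.05 (adjusted p = 0.0964).

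Cdh6, a cadherin of kidney and neural crest, was 3.77-fold higher in NPC than in ES cells (1.91 ± 0.16, limma adjusted p = 1.03e-05), and its difference of 0.96 in MEF against ES cells was just under the limit. Cdh22, expressed in brain, was at the limit, 1.02 ± 0.25 in NPC against ES cells (adjusted p = 0.00795) and -1.05 ± 0.28 in MEF against NPC (adjusted p = 0.015). Both of its calls rest on single arrays. In NPC against ES cells the value was 0.78 without ES 2, 0.85 without NPC 1 and 0.99 without MEF 1 or MEF 2. In MEF against NPC it was -0.88 without NPC 1, -1.08 without MEF 1 (adjusted p = 0.0703) and -0.97 without MEF 2. The other type II members, Cdh5, Cdh7, Cdh8, Cdh9 and Cdh18, were called in no comparison and none exceeded 5 on any array. Cdh5 is the VE-cadherin that defines endothelium. The 5 endothelial markers Pecam1, Kdr, Tek, Tie1 and Emcn summed to 23.57 to 24.44 in MEF, 22.00 to 25.12 in NPC and 25.06 to 26.66 in ES cells.

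Of the 5 remaining Cdh genes only Cdh13 was called. Cdh13 encodes T-cadherin, which is held to the membrane by a lipid anchor and has no tail inside the cell. It was at 6.10 and 5.98 in MEF, 6.80, 7.41 and 7.17 in NPC and 5.26, 4.87 and 4.30 in ES cells. The groups did not overlap. It was 4.97-fold higher in NPC than in ES cells (2.31 ± 0.26, limma adjusted p = 7.02e-05), 2.34-fold higher in MEF than in ES cells (1.22 ± 0.29, adjusted p = 0.00685) and 2.13-fold lower in MEF than in NPC (-1.09 ± 0.29, adjusted p = 0.0152). The MEF calls rest on single arrays: against ES cells the value was 0.99 without ES 3 and 1.14 without MEF 1 (adjusted p = 0.0561), and against NPC it was -0.96 without NPC 2, -1.12 without MEF 1 (adjusted p = 0.0732) and -1.0 without MEF 2 (adjusted p = 0.101). Cdh16 and Cdh17, of kidney and intestine, Cdh23, a partner of Pcdh15 in the tip links of hair cells, and Cdh26 lay between 4.04 and 5.17 on every array.

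Delta protocadherins signal through short conserved motifs in their tails and are studied for roles in axon growth and cell movement. Among the 9 genes, 6 were higher in NPC than in ES cells (66.7%, against 10.0% of all genes). In MEF against ES cells 4 were higher (44.4%, against 12.2%). In MEF against NPC 3 were higher (33.3%, against 10.5%) and 4 lower (44.4%, against 7.95%). Pcdh18 and Pcdh19 were highest in MEF and lowest in ES cells. Pcdh10, separated from Pcdh18 by 1 coding gene in the RefSeq order, was called higher in NPC than in both other cell types. The 250 bases before the start of these 3 genes are shown, from RefSeq with build GRCm38.p6, since Pcdh18 and Pcdh19 have the same order of groups on different chromosomes and Pcdh10 and Pcdh18 have different ones on the same chromosome. Pcdh10 is read at chr3:45378148-45378397 on the plus strand, Pcdh18 at chr3:49757317-49757566 on the minus strand and Pcdh19 at chrX:133688994-133689243 on the minus strand. Capitals mark CCAAT on either strand (CCAAT or ATTGG), which is the core of the CCAAT box.
Pcdh10: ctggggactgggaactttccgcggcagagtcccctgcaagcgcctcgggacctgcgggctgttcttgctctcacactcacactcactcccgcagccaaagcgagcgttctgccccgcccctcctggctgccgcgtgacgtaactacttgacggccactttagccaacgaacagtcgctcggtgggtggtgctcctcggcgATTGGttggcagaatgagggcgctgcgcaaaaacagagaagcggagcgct
Pcdh18: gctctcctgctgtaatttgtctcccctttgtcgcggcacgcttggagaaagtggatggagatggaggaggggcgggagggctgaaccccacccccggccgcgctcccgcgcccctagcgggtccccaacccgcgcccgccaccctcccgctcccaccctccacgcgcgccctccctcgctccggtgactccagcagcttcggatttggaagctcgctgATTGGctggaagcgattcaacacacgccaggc
Pcdh19: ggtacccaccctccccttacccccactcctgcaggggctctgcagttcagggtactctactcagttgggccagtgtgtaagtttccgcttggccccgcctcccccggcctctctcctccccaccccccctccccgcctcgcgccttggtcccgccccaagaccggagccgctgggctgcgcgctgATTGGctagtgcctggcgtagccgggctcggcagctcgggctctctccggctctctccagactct

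Each of the 3 windows holds it once, as ATTGG, starting 50 bases before the start of Pcdh10, 32 before that of Pcdh18 and 65 before that of Pcdh19. Of 32851 promoter windows of the same length, 33.8% hold CCAAT on either strand. Among the 20 member genes with a window in the table, 14 do. Each of the 3 windows also holds GGGCGG, the core of a GC box (either strand), which 32.7% of all windows and 8 of the 20 members have. CACCTG on either strand, an E-box, is in 17.2% of windows, in 2 of the 20 members and in none of these 3 windows. No motif overlaps another in these windows, and the motifs were picked after the sequences were seen. A match is a description of the letters only.

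Pcdh18 was at 9.16 and 9.19 in MEF, 7.86, 7.70 and 7.59 in NPC and 4.73, 4.89 and 4.6 in ES cells. Pcdh19, whose human counterpart is linked to epilepsy, was at 9.72 and 9.70 in MEF, 7.83, 7.82 and 7.84 in NPC and 5.59, 5.34 and 5.48 in ES cells. In both genes the groups were well apart. Pcdh18 was 21.6-fold higher in MEF than in ES cells (4.43 ± 0.15, limma adjusted p = 6.48e-08), 7.89-fold higher in NPC than in ES cells (2.98 ± 0.13, adjusted p = 2.14e-07) and 2.74-fold higher in MEF than in NPC (1.45 ± 0.15, adjusted p = 5.93e-05). Pcdh19 was 18.9-fold higher in MEF than in ES cells (4.24 ± 0.12, adjusted p = 2.59e-08), 5.12-fold higher in NPC than in ES cells (2.36 ± 0.11, adjusted p = 2.39e-07) and 3.68-fold higher in MEF than in NPC (1.88 ± 0.12, adjusted p = 3.06e-06). Both further probe sets of Pcdh19 were called alike in each comparison. Of the 2 further probe sets of Pcdh18, 1 was not called in NPC against ES cells, at 0.84.

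Pcdh7 was at 7.69 and 7.80 in MEF, 5.68, 4.98 and 5.34 in NPC and 4.72, 4.74 and 4.63 in ES cells. It stood high in MEF, 8.28-fold above ES cells (3.05 ± 0.22, limma adjusted p = 4.39e-06) and 5.32-fold above NPC (2.41 ± 0.22, adjusted p = 2.83e-05). Its probe sets disagreed on NPC: the probe set used differed by 0.64 from ES cells and was not called, whereas another differed by 1.90 and was called, and that other one was not called in MEF against NPC (0.78).

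Pcdh10 was at 4.80 and 4.89 in MEF, 7.02, 6.87 and 6.85 in NPC and 4.51, 4.26 and 4.34 in ES cells. It was 5.82-fold higher in NPC than in ES cells (2.54 ± 0.15, limma adjusted p = 1.12e-06) and 4.20-fold lower in MEF than in NPC (-2.07 ± 0.17, adjusted p = 1.35e-05). Its probe set has shared sequence, and its 5 further probe sets differed by 0.75 to 3.06 in NPC against ES cells, 4 of them called. Pcdh11x was at 4.33 and 4.16 in MEF, 7.02, 7.51 and 7.74 in NPC and 4.04, 4.23 and 4.02 in ES cells, so MEF and ES arrays lay at the floor together. It was 10.0-fold higher in NPC than in ES cells (3.33 ± 0.20, adjusted p = 1.51e-06) and 9.05-fold lower in MEF than in NPC (-3.18 ± 0.23, adjusted p = 6.75e-06).

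Among the 9 delta protocadherins Pcdh9 had the widest spread within NPC (SD 0.76, n = 3). It was at 6.12 and 6.55 in MEF, 8.49, 7.13 and 7.21 in NPC and 5.05, 5.17 and 4.80 in ES cells, and NPC 1 was its highest array. It was 6.08-fold higher in NPC than in ES cells (2.60 ± 0.34, limma adjusted p = 0.000189), and 2.18 without NPC 1. In MEF against ES cells it was called at 1.33 ± 0.38 (adjusted p = 0.0181), and the adjusted p was 0.0554 without ES 3 (value 1.26), 0.0513 without MEF 1 (1.5) and 0.142 without MEF 2 (1.09). Against NPC, MEF were called lower at -1.28 ± 0.38 (adjusted p = 0.0254), and was -0.84 without NPC 1, -1.05 without MEF 1 (adjusted p = 0.178) and -1.46 without MEF 2 (adjusted p = 0.0692).

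Pcdh17 was 2.60-fold higher in NPC than in ES cells (1.38 ± 0.16, limma adjusted p = 8.61e-05). In MEF against NPC it was just past the limit, -1.02 ± 0.18 (adjusted p = 0.00161). This second call ended without NPC 2 (-0.97) and without MEF 2 (-0.77). The dimmer second probe set of Pcdh17 was called in neither comparison, at 0.50 and -0.04. Both calls ended with the mean of probe sets and with a pseudocount of 64. Pcdh1 and Pcdh8 lay between 4.05 and 5.20 on all arrays and were called nowhere. Pcdh12, Pcdh15 and Pcdh20, which are neither clustered nor delta protocadherins, were also called nowhere. Pcdh12 belongs to endothelium and trophoblast, and Pcdh15 to hair cells. Of these 3, Pcdh20 came nearest in MEF against ES cells, at 5.48 and 5.37 in MEF and 4.07, 4.79 and 4.42 in ES cells, a difference just under the limit of 1 (limma adjusted p = 0.00395). Pcdh9, its direct neighbour in the gene order, was called in that comparison.

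**Figure D3:**
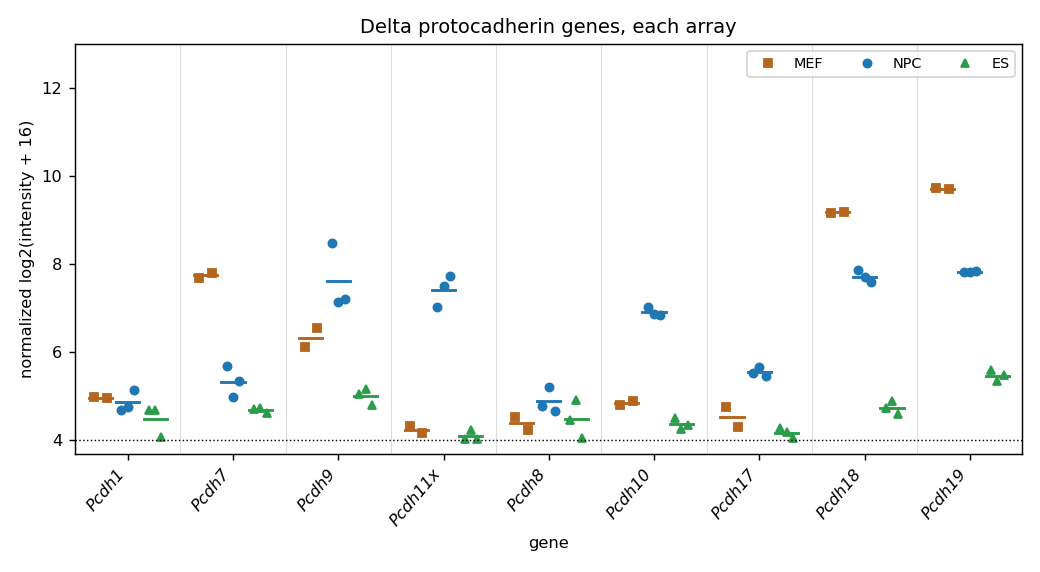
Normalized log2(intensity + 16) of the 9 delta protocadherin genes on each array, with MEF as squares, NPC as circles and ES as triangles, in this order from left to right within a gene. Lines are group means and the dotted line is the floor of 4. Pcdh7, Pcdh18 and Pcdh19 are highest in MEF, whereas Pcdh9, Pcdh10, Pcdh11x and Pcdh17 are highest in NPC.

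Clustered protocadherins are encoded in tandem, each gene of the Pcdhb cluster being a single coding exon with its own promoter, and neurons are known to use differing subsets of them. The 22 Pcdhb genes follow each other in numerical order with no other coding gene between them in the RefSeq order. They are close copies of each other, so signal of one copy may reach the probes of another, and the value of any single copy is uncertain. Of the 22, 11 were higher in NPC than in ES cells (against 10.0% of all genes) and 0 were lower, with a median difference of 1.11. In MEF against ES cells 4 were higher (18.2%, against 12.2% of all genes) and 0 lower. In MEF against NPC 0 were higher and 8 lower (36.4%, against 7.95% of all genes). At an unadjusted p under 0.05, limma likewise put 0 of the 22 on the side without calls in each of the 3 comparisons. Their means in ES cells were 4.05 to 4.80, less than 1 above the floor of 4. No Pcdhb gene could therefore be called lower than in ES cells, and the counts of 0 lower are no result about these genes.

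In ES cells all 22 were at 5.02 or lower on each array. In NPC the called genes were Pcdhb3, Pcdhb7, Pcdhb9, Pcdhb10 and Pcdhb11, and, at the far end of the cluster, Pcdhb16, Pcdhb17 and Pcdhb19 to Pcdhb22. Pcdhb17 was at 6.25 and 6.23 in MEF, 6.96, 7.70 and 7.68 in NPC and 4.46, 4.03 and 4.6 in ES cells, and Pcdhb20 at 5.51 and 5.36 in MEF, 6.89, 7.23 and 7.12 in NPC and 4.03, 4.09 and 4.06 in ES cells. Both had NPC highest and MEF between, with no overlap. Pcdhb17 was 8.45-fold (3.08 ± 0.24, limma adjusted p = 6.89e-06) and Pcdhb20 8.12-fold (3.02 ± 0.15, adjusted p = 4.69e-07) higher in NPC than in ES cells. In MEF against ES cells they were higher by 1.87 ± 0.27 (adjusted p = 0.000356) and by 1.37 ± 0.17 (adjusted p = 0.000151).

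Pcdhb21 was at 5.32 and 5.30 in MEF, 6.87, 7.22 and 7.35 in NPC and 4.05, 4.33 and 4.30 in ES cells, and Pcdhb22 at 5.70 and 5.78 in MEF, 6.18, 6.56 and 6.65 in NPC and 4.42, 4.11 and 4.20 in ES cells. They had the same order of groups as Pcdhb17 and Pcdhb20. Pcdhb21 was 7.54-fold (2.91 ± 0.18, limma adjusted p = 1.36e-06) and Pcdhb22 4.66-fold (2.22 ± 0.18, adjusted p = 8.26e-06) higher in NPC than in ES cells, and in MEF against ES cells they were higher by 1.08 ± 0.20 and 1.5 ± 0.20. The call of Pcdhb21 in MEF against ES cells ended without ES 1, at 0.99.

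Pcdhb9 was at 4.19 and 4.65 in MEF, 5.99, 7.74 and 7.71 in NPC and 4.29, 4.29 and 4.07 in ES cells. Pcdhb16 was at 4.96 and 5.20 in MEF, 6.54, 7.14 and 7.16 in NPC and 4.59, 4.71 and 4.77 in ES cells. On the probe sets used, neither was called in MEF against ES cells, where the differences were 0.20 ± 0.48 and 0.39 ± 0.22. In both genes NPC 1 was the lowest NPC array. A further probe set of Pcdhb16 was called higher than in ES cells both in MEF (1.02) and in NPC (1.82). It was not called in MEF against NPC (-0.80). Another was called in no comparison, at 0.85 in NPC against ES cells. In NPC against ES cells Pcdhb9 was 7.61-fold higher (2.93 ± 0.43, limma adjusted p = 0.00037) and Pcdhb16 4.78-fold higher (2.26 ± 0.20, adjusted p = 1.59e-05). The other 5 called copies were 2.48-fold to 3.59-fold higher in NPC. In MEF against NPC, Pcdhb19 was lower by the call (-1.21 ± 0.23), and without MEF 2 the difference was -0.84. Pcdhb5, Pcdhb8, Pcdhb12, Pcdhb15 and Pcdhb18 passed the adjusted p in NPC against ES cells with differences of 0.51 to 0.90, under the limit of 1. Pcdhgc4, the only Pcdhg gene with a probe set of its own, was at 5.17 and 5.06 in MEF, 5.98, 5.77 and 6.02 in NPC and 5.26, 5.17 and 5.55 in ES cells and was not called.

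**Figure D4:**
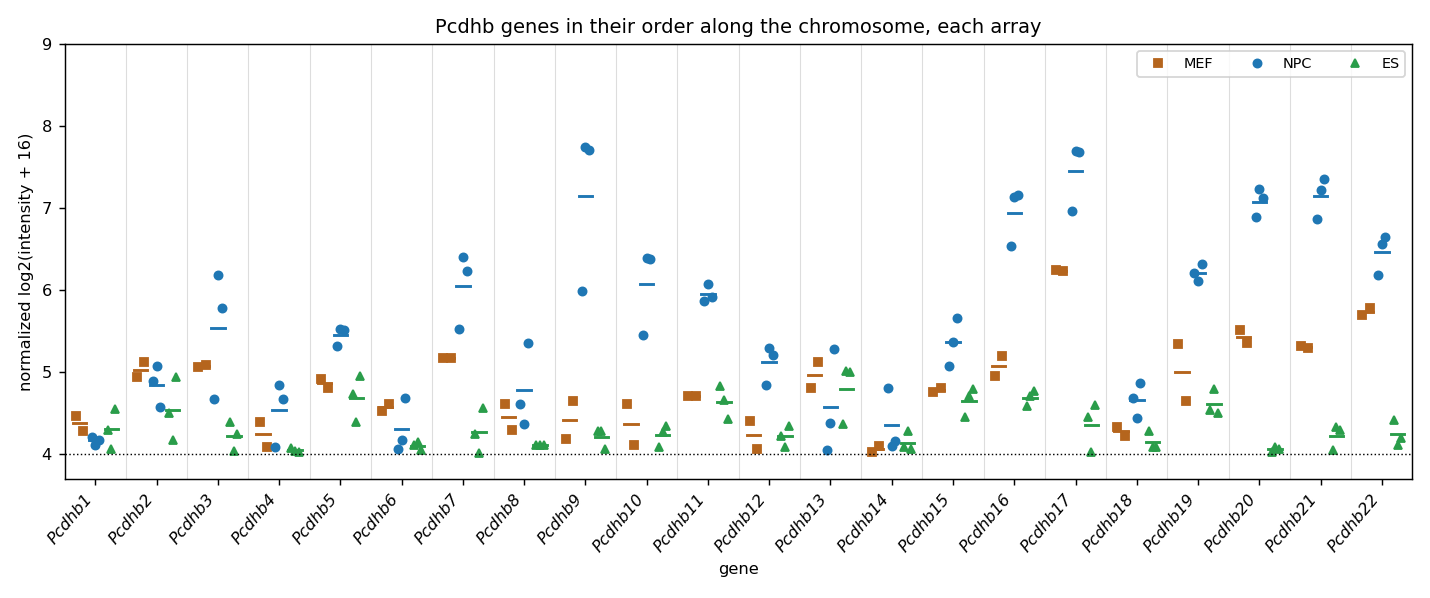
Normalized log2(intensity + 16) of the 22 Pcdhb genes, from left to right in their order along the chromosome, with MEF as squares, NPC as circles and ES as triangles in this order within a gene. Lines are group means and the dotted line is the floor of 4. ES arrays stay near the floor throughout, and in Pcdhb9, Pcdhb10, Pcdhb16 and Pcdhb17 the first NPC point lies below the other 2.

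The 3 NPC arrays did not show the Pcdhb genes at the same level. NPC 1 was the lowest NPC array in 10 of the 11 called Pcdhb genes (90.9%), with a median of -0.61 for its level minus the mean of NPC 2 and NPC 3. NPC 1 was lowest in 40.6% of all genes. Over all genes called higher in NPC than in ES cells it was lowest in 52.0% and the median was -0.10, and in the other 14 called members it was lowest in 4. This view was chosen after the values were seen and no test was made. Without NPC 1, 25 members were again higher in NPC than in ES cells, Cdh22 having been lost and 1 other gained, and all 11 Pcdhb genes were called, Pcdhb9 at 3.53. The 5 neuron markers Tubb3, Dcx, Snap25, Syt1 and Stmn2 summed to 29.62 to 30.12 in MEF, 25.66 to 30.10 in NPC and 32.35 to 32.97 in ES cells. Dcx was at 4.46, 6.58 and 6.79 on NPC 1, NPC 2 and NPC 3 and Syt1 at 6.65, 8.64 and 8.82. The other markers did not show such a gap. On the same arrays Tubb3 was at 6.06, 6.22 and 6.27 and Stmn2 at 4.41, 4.6 and 4.15, while Snap25 was at 4.04 to 4.08. In ES cells, where the sum was highest, Stmn2 was at 11.43, 11.4 and 11.45. The part of neurons in the Pcdhb levels was not tested.

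Markers of other cells also differed in MEF, the cell type in which Cdh11, Pcdh7, Pcdh18 and Pcdh19 were highest. The 5 macrophage markers summed to 36.37 to 36.52 in MEF, 24.67 to 25.20 in NPC and 31.45 to 31.98 in ES cells. Of these, 4 were called higher in MEF than in NPC, and 2 were higher and 2 lower in MEF than in ES cells. The 4 muscle markers summed to 26.25 to 26.76 in MEF, 18.43 to 19.87 in NPC and 21.05 to 22.17 in ES cells, with 3 of 4 called higher in MEF than in NPC. The 5 primitive endoderm markers summed to 32.29 to 32.69 in MEF, 23.70 to 24.91 in NPC and 31.31 to 32.24 in ES cells. In MEF, 3 of them were called higher than in NPC, and 1 was higher and 1 lower than in ES cells. Epcam, Krt8, Krt18 and Krt19, markers of epithelium, summed to 24.66 to 24.83 in MEF, 17.77 to 18.21 in NPC and 34.74 to 35.12 in ES cells. These sums had the same order of groups as the means of Cdh1. Krt19 had another order, at 7.98 and 7.86 in MEF, 4.68, 4.41 and 4.46 in NPC and 6.33, 6.13 and 6.30 in ES cells. The part of such cells in the cadherin levels was not tested.

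Cadherins work with catenins, which bind the tails of the classical members. The partners and regulators were 85 measured genes on 5 lists. In NPC against ES cells 14 of them were higher (16.5%, against 10.0% of all genes) and 24 lower (28.2%, against 12.9%). In MEF against ES cells 18 were higher (21.2%, against 12.2%) and 22 lower (25.9%, against 12.8%), and in MEF against NPC 14 were higher (16.5%, against 10.5%) and 14 lower (16.5%, against 7.95%). Their median differences were -0.22, -0.09 and 0.02, against -0.05, -0.04 and -0.01 over all genes. Ctnnb1, or beta-catenin, was at 12.30 and 12.32 in MEF, 12.38, 12.13 and 12.22 in NPC and 12.32, 12.38 and 12.42 in ES cells. The groups overlapped, and the greatest of its 3 differences was -0.13 ± 0.08 (NPC against ES cells, limma adjusted p = 0.19). Ctnna1, or alpha-catenin, differed by -0.85 ± 0.07 in NPC against ES cells (adjusted p = 8.29e-06), under the limit of 1. Cdh1, Cdh2, Cdh4 and Cdh11 each differed by at least 13.1-fold in 1 or more comparisons, whereas these 2 catenins were called in none.

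Other partners did differ. Ctnnd2, the delta-catenin of neurons, was at 5.92 and 6.09 in MEF, 9.63, 9.70 and 9.66 in NPC and 4.77, 4.72 and 4.68 in ES cells. It was 30.7-fold higher in NPC than in ES cells (4.94 ± 0.12, limma adjusted p = 6.13e-09) and 12.6-fold lower in MEF than in NPC. Ctnnd1, or p120-catenin, was 2.19-fold higher in MEF than in ES cells (1.13 ± 0.09, adjusted p = 9.65e-06). Vcl, the vinculin that links junctions to actin, was 5.89-fold higher in MEF than in ES cells (2.56 ± 0.27, adjusted p = 5.06e-05). Nectin2, an adhesion receptor of the same junctions, was 4.67-fold lower in NPC than in ES cells (-2.22 ± 0.22, adjusted p = 3.00e-05).

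Among desmosomal and atypical cadherins, which are not members by symbol, 5 of 21 were higher and 5 lower in NPC than in ES cells (23.8% each, against 10.0% and 12.9% of all genes). Dsg2, a desmosomal cadherin, was at 5.15 and 5.32 in MEF, 4.57, 4.41 and 4.48 in NPC and 9.30, 9.25 and 9.28 in ES cells. Dsg2 had the same order of groups as Cdh1 and the summed epithelial markers, though not as Krt19. It was 27.6-fold lower in NPC than in ES cells (-4.79 ± 0.13, limma adjusted p = 1.28e-08). Fat4 and Dchs1, a receptor and ligand pair of planar polarity, were 9.52-fold (3.25 ± 0.28, adjusted p = 1.15e-05) and 8.85-fold (3.15 ± 0.31, adjusted p = 2.83e-05) higher in NPC than in ES cells. In MEF against ES cells they were 10.7-fold and 3.57-fold higher.

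Regulators of cadherin genes include repressors of Cdh1 and factors of the epithelial state. On this list of 18, 4 genes were higher (22.2%, against 10.0% of all genes) and 8 lower (44.4%, against 12.9%) in NPC than in ES cells. In MEF, 6 were higher (33.3%, against 12.2%) and 8 lower (44.4%, against 12.8%) than in ES cells. Zeb1, a repressor of Cdh1, was at 9.69 and 9.72 in MEF, 12.21, 11.40 and 11.55 in NPC and 7.25, 7.42 and 7.64 in ES cells, 19.4-fold higher in NPC than in ES cells (4.28 ± 0.19, limma adjusted p = 2.44e-07). Snai1, another such repressor, was at 8.70 and 8.56 in MEF, 4.61, 4.33 and 4.83 in NPC and 5.22, 5.03 and 5.14 in ES cells. Zeb1 was thus called in both comparisons with ES cells, and Snai1 only in MEF (3.50 ± 0.19, adjusted p = 9.41e-07, and -0.54 ± 0.17 in NPC). Esrp1, a splicing factor of epithelia, was 18.3-fold lower in NPC (-4.19 ± 0.15, adjusted p = 5.88e-08) and 16.8-fold lower in MEF (-4.07 ± 0.17, adjusted p = 2.03e-07) than in ES cells, and Klf5, a factor of ES cells and epithelia, 32.2-fold and 6.18-fold lower.

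Regulators of protocadherin promoters include subunits of cohesin and enzymes of DNA methylation. Of 14 measured, 0 were higher in NPC than in ES cells (against 10.0% of all genes). At an unadjusted p under 0.05 in limma, 3 were higher. By the calls 2 were lower (14.3%, near the 12.9% of all genes). In MEF against ES cells 0 were higher (against 12.2%, and 0 also at an unadjusted p under 0.05) and 4 lower (28.6%, against 12.8%). In MEF against NPC 1 was higher (7.14%, against 10.5%) and 0 were lower (against 7.95%). Even so, 10 lay lower at an unadjusted p under 0.05. In a list of 14 genes, counts of 0 or 1 beside such shares are no result about the list. The 2 lower in NPC were Dnmt3b, a DNA methyltransferase, and Rest, a repressor of neuronal genes. Dnmt3b was at 6.14 and 6.01 in MEF, 5.96, 6.26 and 6.06 in NPC and 9.56, 9.63 and 9.60 in ES cells, 11.3-fold lower in NPC than in ES cells (-3.50 ± 0.12, limma adjusted p = 4.04e-08). Rest was at 8.99 and 9.05 in MEF, 7.87, 7.46 and 7.65 in NPC and 10.43, 10.48 and 10.56 in ES cells, 7.10-fold lower in NPC than in ES cells (-2.83 ± 0.11, adjusted p = 9.10e-08). Among genes of cadherin turnover, Mmp14, a membrane protease, was 21.2-fold higher in MEF than in ES cells (4.41 ± 0.43, adjusted p = 2.91e-05), Adam10, which sheds Cdh1 and Cdh2, was 3.79-fold higher in NPC and 3.73-fold higher in MEF than in ES cells, and Fyn, a kinase of junctions, was 13.7-fold higher in NPC than in ES cells.

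**Figure D5:**
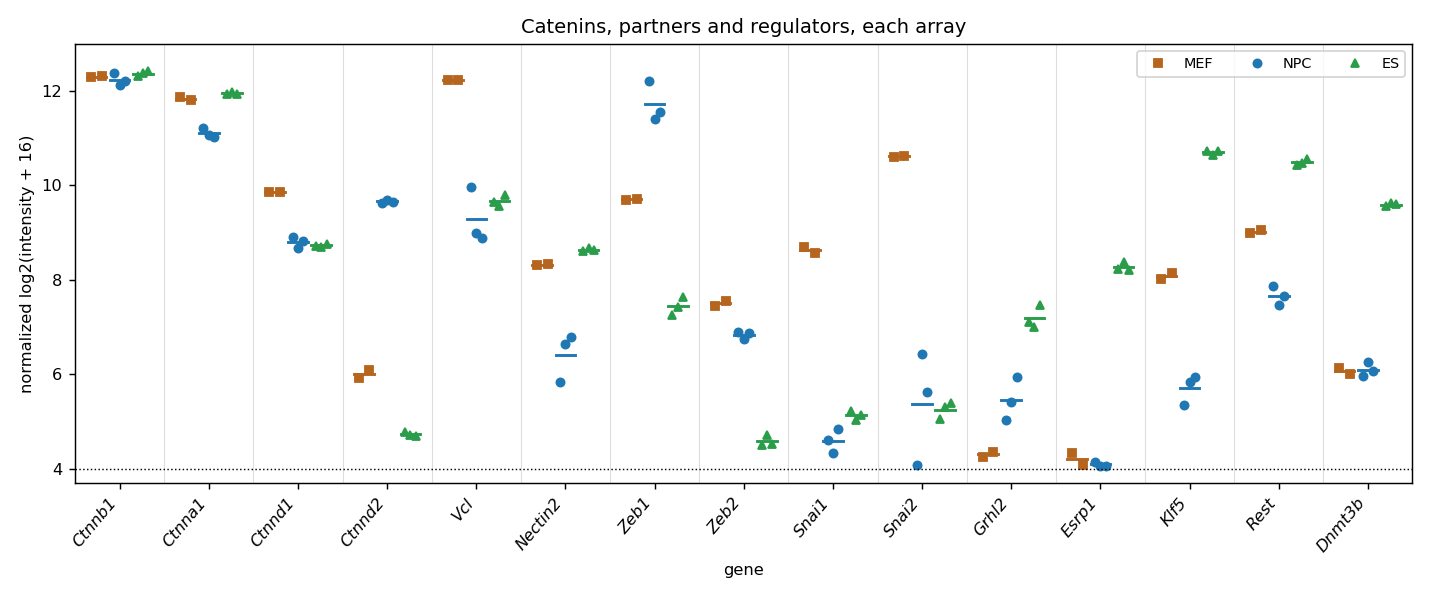
Normalized log2(intensity + 16) of 15 catenins, partners and regulators on each array, with MEF as squares, NPC as circles and ES as triangles, in this order from left to right within a gene. Lines are group means and the dotted line is the floor of 4. Ctnnb1 lies at one level in all 3 cell types, whereas Ctnnd2 and Zeb1 are highest in NPC, Snai1 and Snai2 in MEF, and Esrp1, Klf5, Rest and Dnmt3b in ES cells.

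Members that were not called were mostly dim. On every array, 28 of the 56 members lay below 6.06, the median level of all genes, and 15 lay below 5. Further probe sets of the same gene were present for 37 called results. All of these lay on the same side in 33, and in 0 did any lie on the opposite side by 1 or more. At least 1 further probe set was called alike in 27 of the 37, and in 5 of 9 in MEF against ES cells. In the fit of all 45037 probe sets, 8.99% were called higher in NPC than in ES cells, 9.82% in MEF than in ES cells and 8.1% in MEF than in NPC.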

How the data were processed

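The deposited values were linear intensity, 1 value per probe set and array, for 45101 probe sets on 8 arrays. Per the submitters' processing notes GCOS 1.4 was used, and its algorithm and scaling are not given in the sources used here. No detection calls were used. After 64 control probe sets were left out, the gene results rest on 34945 probe sets with 1 annotated gene each. The deposited intensities were put on the scale log2(intensity + 16), then quantile normalized, and all 18193 genes were tested with no filter on low values.

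Differences were fitted in R 4.3.3 with limma 3.58.1 (lmFit and eBayes with a variance trend) on all 8 arrays, with Benjamini-Hochberg adjustment over all genes and two-sided tests. Array values were printed for called members that differed by at least 2, and for Pcdh20 and Pcdhgc4, picked after their values were seen. Partner genes named were called ones, up to 3 per list, direction and comparison, with Ctnnb1, Ctnna1 and Ctnnd1. On simulated data, 90%, 81% and 83% of differences of 1.5 log2 units were recovered in NPC against ES, MEF against ES and MEF against NPC, and 3, 3 and 7 of 17993 unchanged genes were called.

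The members, lists and tests were chosen with earlier results of these data known. The alternatives were median centring, the deposited scaling, pseudocounts of 1 and 64, leaving out dim genes or shared sequence, the mean of probe sets, other models and each array left out. Scaling to a trimmed mean was chosen after seeing the data. The number of arrays limits the precision. Gene order and promoter windows came from RefSeq tables of build GRCm38.p6. Probe sets were matched to current symbols through Entrez IDs (99.42% of them).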

Additional observations from a re-analysis of the deposited data

Results flagged for a closer look

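Signal above that of ES cells was also found in probe sets outside the gene comparisons. The Pcdha genes share exons, and 6 probe sets were listed with several genes that all were Pcdha genes, so they name no single gene. In a limma fit of all 45037 probe sets, of which 8.99% were called higher in NPC than in ES cells, 2 of the 6 were called higher. The first was at 5.41 and 5.57 in MEF, 5.78, 7.39 and 7.16 in NPC and 4.47, 4.47 and 4.57 in ES cells, a log2 difference of 2.27 in NPC against ES cells (adjusted p = 0.000719). The second was at 5.44 and 5.24 in MEF, 5.51, 6.41 and 6.36 in NPC and 4.11, 4.87 and 4.05 in ES cells, a difference of 1.75 (adjusted p = 0.00111). In both, NPC 1 was the lowest NPC array and lay near the MEF arrays. In MEF against NPC, where 8.1% of all probe sets were called lower, the first was one of these, at -1.28 (adjusted p = 0.0348), and the second was not, at -0.75 (adjusted p = 0.121).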

How the results depend on the processing

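The 63 called results of the members (a gene in a comparison) were recomputed under 19 alternatives: 36 stayed called in all of them, 27 were lost in at least 1 and 0 were reversed. Of the 27, 12 were lost with a pseudocount of 64 alone, which damps dim genes by its construction. That setting gave 16 members higher and 1 lower and 13 partner genes lower in NPC against ES, 6 members higher in MEF against ES, and 8 members lower in MEF against NPC. A pseudocount of 1 gave 19 members higher in MEF against ES. In MEF against NPC, the deposited scaling gave 9 members lower and 25 partner genes higher and 6 lower, and the mean of probe sets 9 partner genes lower. The cause of these last shifts was not tested.

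With each array left out in turn, members called in NPC against ES numbered 24 to 25 higher and 2 lower, in MEF against ES 10 to 13 higher and 1 lower, and in MEF against NPC 5 higher and 13 to 19 lower. For the partner genes these ranges were 14 to 16 higher and 23 to 25 lower, 18 to 19 and 21 to 24, and 13 to 15 and 12 to 14. With 1 MEF array left out, the lone array is assumed to vary like the other groups.

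Replicate numbers did not pair the samples: deviations of same-numbered arrays correlated at -0.02 to 0.023. With the replicate number as a block, the counts of members were 25 higher and 2 lower, 15 and 1, and 5 and 18 in the same order of comparisons, and 0 of the 63 results were lost.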
